A study of Saccharomyces cerevisiae with 18 samples.

Results

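The nuclear-encoded genes of the yeast respiratory chain and ATP synthase were followed in RNA sequenced from budding yeast (Saccharomyces cerevisiae). The members were 39 of the 6606 open reading frames (ORFs) in the deposited table, chosen by name: 3 NADH dehydrogenases, 4 subunits of complex II, 9 of complex III, 2 cytochromes c, 9 subunits of complex IV and 12 of ATP synthase. The samples were 6 wild-type libraries and 3 libraries from each of 4 heterozygous strains, in which 1 copy of SEO1 (YAL067C), GIP4 (YAL031C), FUN26 (YAL022C) or FUN14 (YAL008W) was replaced. All cells grew in YPD, a rich glucose medium, at 30 °C and were taken in exponential growth, between optical densities of 0.2 and 1.0, with no G418 added. The labels do not say whether replicates were separate cultures, so the spread behind each p-value may be technical.

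In yeast the respiratory chain begins with single-subunit NADH dehydrogenases and with succinate dehydrogenase (complex II), which feed electrons to ubiquinone. Complex III passes them to cytochrome c, complex IV passes them to oxygen, and ATP synthase uses the proton gradient that complexes III and IV build. Budding yeast ferments glucose and represses many of these genes while glucose is plentiful, and the HAP2/3/4/5 complex activates many of them. Several subunits have paralogs: CYC1 and COX5A are known as the aerobic forms of cytochrome c and of complex IV subunit 5, and CYC7 and COX5B as the forms favoured at low oxygen.

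The series text calls all strains diploid, the labels give the background BY4741, a haploid name, and the wild-type columns are named BY4743, a diploid name. These columns were taken as the wild-type samples because no other columns were left and the replicate numbers matched. Genes specific to MATa cells, 6 in number, summed to 1222 ± 248 CPM (counts per 1e6 scaled counts; SD, n = 5) in wild-type and to 83.5 ± 50.5 (n = 12) in the heterozygotes. Haploid-specific genes, also 6, summed to 1192 ± 238 CPM and 101 ± 41.9 CPM. The wild-type libraries therefore carried a-specific and haploid-specific transcripts that the heterozygotes largely lacked, although all strains are described as diploid. Ploidy itself was not measured. Every comparison with wild-type sets together the replaced gene, this mating-type difference and any difference of ploidy or background, which cannot be told apart. Comparisons among the 4 heterozygotes do not contain this mating-type difference from wild-type. The replaced gene had a mean of 164 CPM in its own strain and 312 CPM in wild-type for FUN14, 136 and 269 CPM for FUN26, and 9.79 and 57.0 CPM for GIP4. SEO1 had 0 counts in its own strain and 4 in wild-type, too few to check that label.

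Libraries held between 52293.5 and 132618 counts. Wild-type replicates 1 and 2 agreed within sampling noise: over 2513 ORFs their chi-square averaged 0.969, and no other pair of libraries of a group fell below 1.327. Both were averaged into 1 sample, which left wild-type with n = 5. The counted window was the final 200 bases of an ORF, and levels of different genes are compared only as counts over that window. The ORFs of 4 members were shorter than 200 bases: COX7 (183), COX9 (180), ATP15 (189) and ATP18 (180). How the window was set for them is not stated, so their levels and the sums that hold them are less comparable. Of the 39 members, 30 passed the count filter and were tested. NDI1, NDE2, SDH2, SDH3, QCR10, RIP1, COX6, COX12 and COX13 did not pass and are given by counts or CPM.

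No member changed in any of the 6 comparisons, in the fit with 1 mean per group, at an adjusted p under 0.05 (edgeR quasi-likelihood test, Benjamini-Hochberg over 2856 ORFs), and DESeq2 called 0 members as well. Over all tested ORFs, 0.14% were called for SEO1, 0.28% for GIP4, 0.21% for FUN26, 0.315% for FUN14, 0.385% for the mean of the 4 heterozygotes and 0% among the heterozygotes. At an unadjusted p under 0.05, members numbered 0 of 30 in the SEO1 heterozygote, where 3.92% of all tested ORFs passed. They numbered 3 in the GIP4 heterozygote (4.83% of all ORFs) and 2 in the FUN26 heterozygote (4.34%). They numbered 2 in the FUN14 heterozygote (16.7%), 2 for the mean of the heterozygotes (6.48%) and 1 among the heterozygotes (10%). DESeq2 gave 0, 1, 2, 2, 2 and 0 members in the same order at an unadjusted p under 0.05. The shares of all ORFs by DESeq2 are not given, so these counts have no background to be read against.

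Fold changes of the 30 tested members were small in the median. Against wild-type, the median log2 fold change was 0.08 in the SEO1 heterozygote with 20 members above 0, where all tested ORFs had a median of 0.01 and 50.5% above 0. In the GIP4 heterozygote it was -0.04 with 12 above 0, beside 0.03 and 53% for all ORFs. In the FUN26 heterozygote it was 0.24 with 23 above 0, beside -0.05 and 45.1%. In the FUN14 heterozygote it was 0.13 with 19 above 0, beside -0.03 and 47.9%. For the mean of the heterozygotes it was 0.15 with 20 above 0, beside -0.05 and 44.2%. These comparisons share the wild-type libraries. Leaving out single libraries moved the medians over -0.06 to 0.25 in the SEO1, -0.14 to 0.07 in the GIP4, 0.18 to 0.42 in the FUN26 and 0.03 to 0.27 in the FUN14 heterozygote. Without wild-type replicates 3 and 5, which held the outlying wild-type values, they were 0.36, 0.08, 0.53 and 0.30 over 28 members, so the signs for GIP4 and SEO1 rest on single libraries. FUN26 replicate 3, the library with the fewest counts, held the highest value of all 17 libraries for 11 of the 30 members (36.7%, against 12.6% of all tested ORFs).

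**Figure D1:**
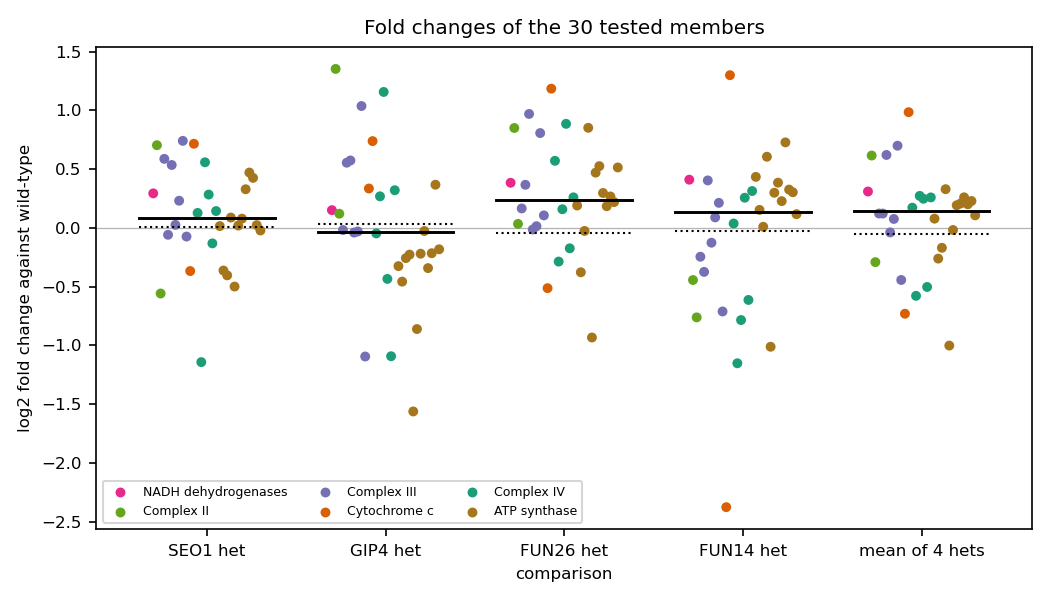
Log2 fold change of each of the 30 tested members against wild-type (vertical axis) in each heterozygote and in the mean of the 4 (horizontal axis), coloured by complex; solid lines are the members' medians and dotted lines the medians of all tested ORFs. The ATP synthase points lie mostly below 0 in the GIP4 heterozygote and mostly above 0 in the FUN14 heterozygote, and CYC1 in the FUN14 heterozygote is the lowest point at -2.38.

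Cytochrome c is the mobile carrier between complexes III and IV, and its paralogs CYC1 (YJR048W) and CYC7 (YEL039C) gave the smallest p-values among the members in the FUN14 heterozygote. Their counted windows, 79.5% identical, are shown because the results turn on telling these genes apart; capitals mark the bases that differ. The windows lie on the plus strand of chromosome X for CYC1 (chrX:526465-526664) and on the minus strand of chromosome V for CYC7 (chrV:79636-79835), in the R64 assembly, from RefSeq.
CYC1: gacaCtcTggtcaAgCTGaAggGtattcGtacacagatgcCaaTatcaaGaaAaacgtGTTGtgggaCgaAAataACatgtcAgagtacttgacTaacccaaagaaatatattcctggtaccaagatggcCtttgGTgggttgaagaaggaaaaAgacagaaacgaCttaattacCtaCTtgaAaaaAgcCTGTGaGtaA
CYC7: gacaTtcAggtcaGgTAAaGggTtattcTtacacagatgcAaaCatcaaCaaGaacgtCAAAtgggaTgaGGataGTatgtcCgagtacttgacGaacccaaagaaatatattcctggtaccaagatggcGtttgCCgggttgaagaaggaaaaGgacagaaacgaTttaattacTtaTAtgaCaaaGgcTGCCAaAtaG
The longest run of bases shared without a difference was 35, so a read within it could match both genes. Neither the read length nor the handling of such reads is stated in the labels.

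CYC7 had 60.2, 163, 256, 149 and 82.1 CPM in wild-type (replicates 1 and 2 averaged, then 3, 4, 5 and 6). It had 213, 176 and 304 CPM in the SEO1 heterozygote and 275, 105 and 348 CPM in the GIP4 heterozygote. It had 375, 296 and 304 CPM in the FUN26 heterozygote and 244, 328 and 492 CPM in the FUN14 heterozygote. All FUN26 libraries lay above all wild-type libraries, as was so for 2 of 30 members and 1.96% of all tested ORFs; the other 3 strains overlapped wild-type. The mean was 288 ± 99.4 CPM (SD, n = 12) over the heterozygotes and 142 ± 76.9 CPM (n = 5) in wild-type. The log2 fold change of CYC7 was 0.98 ± 0.33 (SE) for the mean of the heterozygotes (adjusted p = 0.610, edgeR). It was 1.30 ± 0.42 in the FUN14 heterozygote (adjusted p = 0.159, edgeR) and 1.18 ± 0.42 in the FUN26 heterozygote (adjusted p = 0.875, edgeR).

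CYC1 had 682, 81.7, 22.2, 229 and 410 CPM in wild-type, in the same order. It had 569, 32.0 and 68.4 CPM in the SEO1 heterozygote and 417, 465 and 191 CPM in the GIP4 heterozygote. It had 414, 76.4 and 87.0 CPM in the FUN26 heterozygote and 63.7, 59.6 and 38.8 CPM in the FUN14 heterozygote. Wild-type, SEO1 and FUN26 libraries each spanned both high and low values, whereas the FUN14 libraries were all low and the GIP4 libraries all at 191 CPM or more. The log2 fold change in the FUN14 heterozygote was -2.38 ± 0.996 (SE; adjusted p = 0.248, edgeR). Within groups, CYC1 varied with an SD of 1.30 on the log2 scale, at the 99.4th percentile of the tested ORFs.

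CYC7 made up 44.6% ± 34.9 (SD, n = 5) of the summed counts of both genes in wild-type. Its share was 64.3% ± 32.6 in the SEO1, 40.9% ± 23.1 in the GIP4, 68.3% ± 18.0 in the FUN26 and 85.5% ± 6.73 in the FUN14 heterozygote (n = 3 each). Wild-type libraries alone ran from 8.14% to 92.0%, which covers every strain mean. The heterozygotes exceeded wild-type by 20.1 percentage points (two-sided exact permutation test, p = 0.190, adjusted p = 0.286 over 6 isoform tests), and the shares did not differ detectably among the 4 heterozygotes (exact permutation test, p = 0.158, adjusted p = 0.286).

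**Figure D2:**
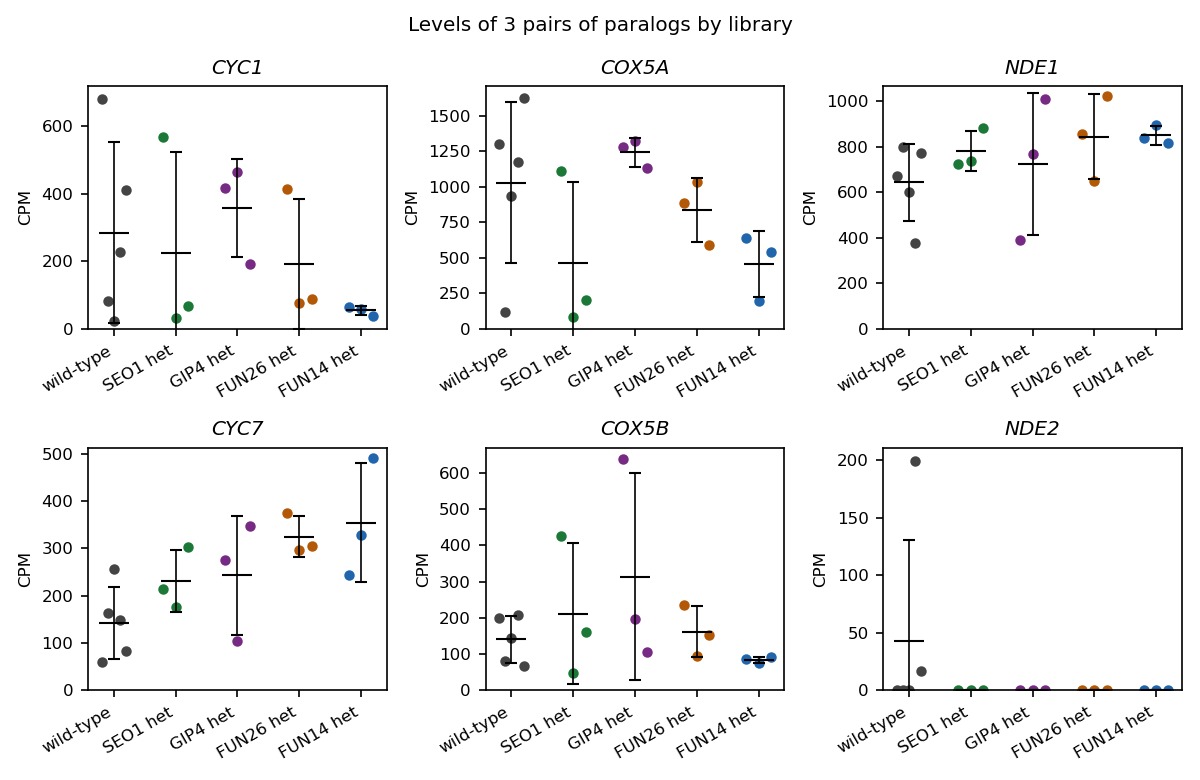
CPM (vertical axes) of the paralogs of cytochrome c, complex IV subunit 5 and the external NADH dehydrogenase in each library, by group (horizontal axes); points are libraries, horizontal marks means and bars ± SD, cut at 0. CYC1 and COX5A fall into high and low libraries within wild-type and within the SEO1 heterozygote, and NDE2 is at 0 outside 2 wild-type libraries.

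Complex IV, cytochrome c oxidase, was led by COX9 and COX5A. COX5A (YNL052W) and COX5B (YIL111W) encode alternative forms of one subunit. Their windows, shown as the other pair of exchangeable subunits, are on the plus strands of chromosomes XIV (chrXIV:531987-532186) and IX (chrIX:155566-155765) of R64. Capitals mark bases that differ or have no partner. Over 197 aligned bases 67.5% were identical, and the longest shared run was 11 bases.
COX5A: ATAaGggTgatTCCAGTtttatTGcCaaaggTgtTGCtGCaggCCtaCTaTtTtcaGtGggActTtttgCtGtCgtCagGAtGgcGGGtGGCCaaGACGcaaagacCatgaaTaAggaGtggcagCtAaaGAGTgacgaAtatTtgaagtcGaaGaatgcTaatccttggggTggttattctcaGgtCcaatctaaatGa
COX5B: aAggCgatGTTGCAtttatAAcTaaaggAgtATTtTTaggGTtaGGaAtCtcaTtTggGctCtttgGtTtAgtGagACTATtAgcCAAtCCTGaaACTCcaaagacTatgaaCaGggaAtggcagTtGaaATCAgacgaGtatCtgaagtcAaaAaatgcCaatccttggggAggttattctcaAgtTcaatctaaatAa

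COX5A had 1303, 114, 933, 1174 and 1625 CPM in wild-type, so replicate 3 stood far below the others. It had 1114, 79.9 and 205 CPM in the SEO1 strain, 1278, 1324 and 1131 CPM in the GIP4 strain, 887, 1031 and 587 CPM in the FUN26 strain and 637, 194 and 543 CPM in the FUN14 heterozygote. High and low libraries again occurred inside wild-type and the SEO1 heterozygote. The log2 fold change was -1.14 ± 0.63 (SE) in the SEO1 heterozygote (adjusted p = 0.994, edgeR) and -1.15 ± 0.63 in the FUN14 heterozygote (adjusted p = 0.366, edgeR). The first depended on 1 library. Without SEO1 replicate 1, which left the libraries at 79.9 and 205 CPM, the log2 fold change was -2.70 (adjusted p = 0.0332, edgeR). In that setting 114 of 3090 tested ORFs were called in the SEO1 heterozygote, and COX5A was the only 1 of 32 members. Among the heterozygotes 217 of the 3090 were called, again with COX5A as the only member.

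COX5B had 200.5, 81.7, 144, 209 and 65.7 CPM in wild-type and 427, 48.0 and 160 CPM in the SEO1 heterozygote. It had 639, 197 and 104 CPM in the GIP4 heterozygote, 237, 95.5 and 152 CPM in the FUN26 heterozygote and 84.9, 74.5 and 90.6 CPM in the FUN14 heterozygote. Replicate 1 was the highest library of the SEO1, GIP4 and FUN26 heterozygotes, and all groups overlapped wild-type. COX5B ranked second among the members in the F test among heterozygotes (adjusted p = 0.545, edgeR). It made up 17.5% ± 14.2 (SD, n = 5) of the summed COX5A and COX5B counts in wild-type, 36.3% ± 8.10 in the SEO1 heterozygote and 18.2%, 16.7% and 17.9% in the GIP4, FUN26 and FUN14 heterozygotes. Neither the heterozygotes against wild-type (4.80 points, exact permutation test, p = 0.476) nor the heterozygotes among themselves (p = 0.111, adjusted p = 0.286, exact permutation test) passed the threshold.

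COX9 (subunit 7a), with an ORF of 180 bases, had the highest mean of complex IV, 1224 ± 365 CPM (SD, n = 17). Wild-type replicate 3 had 310 CPM and every other library at least 866 CPM. COX9 counts were 19 in that library and 79 to 121.5 in every other, while library totals ran from 52293.5 to 132618. In the GIP4 heterozygote COX9 had 105, 109 and 105.5 counts, which gave 932, 1266 and 1844 CPM. Differences of COX9 in CPM, and of the sum that holds it, may therefore partly follow depth, which was not tested. COX12 (subunit 6b) had the lowest mean, 47.8 CPM. COX7 had 168, 115 and 196 CPM in the FUN26 heterozygote against 16.4 to 129 CPM in wild-type, with a log2 fold change of 0.89 ± 0.44 (SE; adjusted p = 0.980, edgeR). Summed over its 9 genes, complex IV had 2816 ± 1009 CPM in wild-type, 2396 ± 709 in the SEO1, 3312 ± 156 in the GIP4, 3080 ± 421 in the FUN26 and 2366 ± 62.2 in the FUN14 heterozygote. All GIP4 and FUN26 libraries lay above all FUN14 libraries, and wild-type spanned from 1095 to 3694 CPM. Fold changes against wild-type were above 0 for 4 of the 6 tested genes in the SEO1 and FUN26 strains and for 3 in the GIP4 and FUN14 strains.

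**Figure D3:**
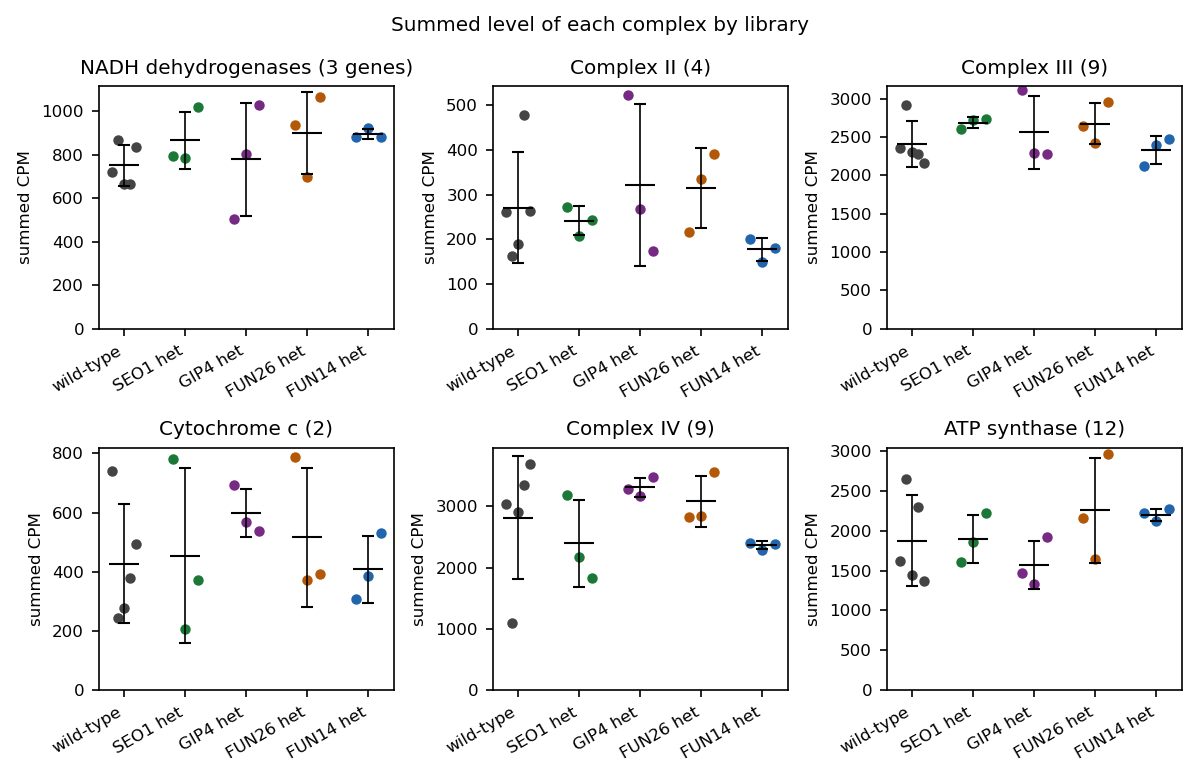
Summed CPM of the genes of each complex (vertical axes) in each library, by group (horizontal axes); points are libraries, horizontal marks means and bars ± SD. Groups overlap in most panels; complex IV in the 3 FUN14 libraries lies between 2295 and 2410 CPM, below every GIP4 and FUN26 library.

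Yeast has no proton-pumping complex I; NDI1 oxidises NADH inside the mitochondrion, and NDE1 and NDE2 face the intermembrane space. NDE1 (YMR145C) was the main form in every library. It had a mean of 753 ± 179 CPM (SD, n = 17), against 61.9 ± 30.4 CPM for NDI1. NDE1 had 839, 894 and 815 CPM in the FUN14 heterozygote and 378 to 800 CPM in wild-type, so that these groups did not overlap. The log2 fold change was 0.41 ± 0.28 (SE; adjusted p = 0.478, edgeR). FUN14 libraries lay wholly above wild-type for 2 of 30 members and for 4.97% of all tested ORFs.

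NDE2 (YDL085W) had 20 counts in wild-type replicate 5, 1 in replicate 6 and 0 everywhere else, including all 12 heterozygote libraries. In replicate 5 it made up 34.5% of the NDE1 and NDE2 counts. The mean share was 7.31% ± 15.2 (SD, n = 5) in wild-type and 0 in the heterozygotes (exact permutation test, p = 0.0735, adjusted p = 0.286), a difference that rests on replicate 5. The NDE1 and NDE2 windows were 65.5% identical, with a longest shared run of 11 bases. Replicate 5 was also the highest wild-type library for SDH3, COX8, COX13, ATP16 and ATP17. Of the 20 tested members with ORFs under 600 bases, 13 lay above the median of the other libraries there, against 3 of the 10 longer ones. Among all tested ORFs the numbers were 475 of 786 and 901 of 2070. This length split was chosen after the values were seen, and its part in the results was not tested.

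Complex II, succinate dehydrogenase, links the citric acid cycle to the chain. SDH4, a membrane anchor, had the highest mean (117 ± 54.9 CPM; SD, n = 17) and SDH2, the iron-sulfur subunit, the lowest (25.6 ± 16.5). SDH1 (YKL148C), the flavoprotein subunit, had 231, 69.7 and 34.8 CPM in the GIP4 heterozygote and 60.2, 65.3, 44.4, 39.8 and 16.4 CPM in wild-type. Only replicate 1 was far above wild-type; the log2 fold change was 1.35 ± 0.58 (SE; adjusted p = 0.921, edgeR), and 0.21 without that library. GIP4 replicate 1 was also the highest of all libraries for CYT1, QCR8, COX5B and RIP1. The complex summed to 271 ± 124 CPM in wild-type, 241 ± 32.5 in the SEO1, 322 ± 181 in the GIP4, 314 ± 89.0 in the FUN26 and 177 ± 26.6 CPM in the FUN14 heterozygote.

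Complex III, the cytochrome bc1 complex, moves electrons from ubiquinol to cytochrome c. QCR6, the hinge subunit, had its highest mean (1104 ± 215 CPM; SD, n = 17) and RIP1, the Rieske iron-sulfur protein, its lowest (33.04 ± 20.2 CPM). The sum over 9 genes was 2407 ± 297 CPM in wild-type, 2689 ± 71.5 in the SEO1, 2561 ± 480 in the GIP4, 2678 ± 267 in the FUN26 and 2332 ± 184 CPM in the FUN14 heterozygote. QCR2 (YPR191W), a core protein, had 256, 172 and 261 CPM in the FUN26 heterozygote and 100.3, 98.0, 156, 159 and 49.2 CPM in wild-type, without overlap. Its log2 fold change was 0.97 ± 0.41 (SE; adjusted p = 0.980, edgeR) in that strain and 0.62 ± 0.32 (adjusted p = 0.719, edgeR) for the mean of the heterozygotes. COR1, the other core protein, had a log2 fold change of 0.59 ± 0.37 in the SEO1 heterozygote (adjusted p = 0.994, edgeR).

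All 12 ATP synthase genes were tested. ATP1 and ATP2 encode the alpha and beta subunits of the catalytic head, ATP3 the gamma stalk, ATP4, ATP5 and ATP7 stalk subunits, and ATP17, ATP18 and ATP20 small subunits of the membrane sector. Their fold changes lay below 0 for 11 of 12 in the GIP4 heterozygote (median log2 of -0.24) and above 0 for 11 of 12 in the FUN14 heterozygote (0.30). They lay above 0 for 9 in the FUN26 heterozygote (0.24) and for 8 in the SEO1 heterozygote (0.02), and 0 of the 12 were called in any of these. The complex summed to 1873 ± 568.03 CPM (SD, n = 5) in wild-type, 1572 ± 303 in the GIP4, 2200 ± 75.9 in the FUN14, 2253 ± 663 in the FUN26 and 1895 ± 305 CPM in the SEO1 heterozygote (n = 3 each). ATP4 had the highest mean (271 ± 104 CPM; SD, n = 17) and ATP20 the lowest (80.7 ± 40.9).

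ATP18 (YML081C-A) had 79.9, 69.7 and 87.0 CPM in the GIP4 heterozygote and 100.3, 229, 133, 149 and 115 CPM in wild-type. It was the only one of 30 members with all GIP4 libraries below all wild-type libraries, where 2.45% of all tested ORFs were. The log2 fold change was -0.86 ± 0.41 (SE; adjusted p = 0.942, edgeR). ATP18 also had the smallest p of the members among the heterozygotes (adjusted p = 0.482, edgeR), with means of 209 and 177 CPM in the FUN26 and FUN14 strains. ATP17 (YDR377W) had 53.3, 58.1 and 34.8 CPM in the GIP4 heterozygote and 80.2, 163, 44.4, 398 and 49.2 CPM in wild-type, where replicate 5 was highest. Its log2 fold change was -1.56 ± 0.64 (SE) in the GIP4 heterozygote (adjusted p = 0.919, edgeR) and -1.001 ± 0.41 for the mean of the heterozygotes (adjusted p = 0.668, edgeR). Replicate 5 carried much of both: without it and without the count filter, which ATP17 then missed, they were -0.64 and -0.11, an alternative chosen after seeing the data.

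The libraries differed along one strong axis that cut across the groups. It was the first principal component of the tested ORFs other than the members and held 44.9% of their variance; 36.5% of the variance of its score lay between groups. Scores were below 0 in 7 libraries: wild-type replicate 3, SEO1 replicates 2 and 3, FUN26 replicate 3 and all 3 FUN14 libraries. They were above 0 in the other 10, which held all 3 GIP4 libraries. Replicate 1 had the highest score of its group in every group. Its score was 23.5 in wild-type (averaged with replicate 2), 23.9 in SEO1, 32.1 in GIP4, 9.55 in FUN26 and -13.6 in FUN14. The labels name no shared batch, and the part of the replicate number in the axis was not tested. COX5A ran from 79.9 to 637 CPM in the 7 and from 887 to 1625 CPM in the 10. The sign of the axis was set so that COX5A correlated above 0 with it. The share of all tested ORFs that separate between the 7 and the 10 libraries is not given. A separation of single members is therefore not read as particular to them. CYC1 ran from 32.0 to 87.0 CPM in the 7 and from 22.2 to 682 CPM in the 10.

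ATP3 and ATP4 ran the other way. ATP3 lay between 149 and 239 CPM in the 7 libraries and between 49.3 and 104 CPM in the 10, and ATP4 between 234 and 522 CPM and between 178 and 261 CPM. Among the 30 members, 12 correlated with the score above 0 and 18 below 0 (median of -0.13). Of the other 2826 tested ORFs, 46.9% correlated above 0 (median of -0.07). Across 2573 of these other ORFs, the correlation of a gene with the axis rose with the GC content of its counted window (Spearman's rho of 0.36). With ORF length it hardly varied (Spearman's rho of -0.08, all 2826 ORFs). These ORFs are not independent. All FUN14 libraries lay on one side and all GIP4 libraries on the other, so for these strains the axis and the replaced gene cannot be told apart. The axis was chosen after the values were seen, and its part in the fold changes of the other strains was not tested.

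**Figure D4:**
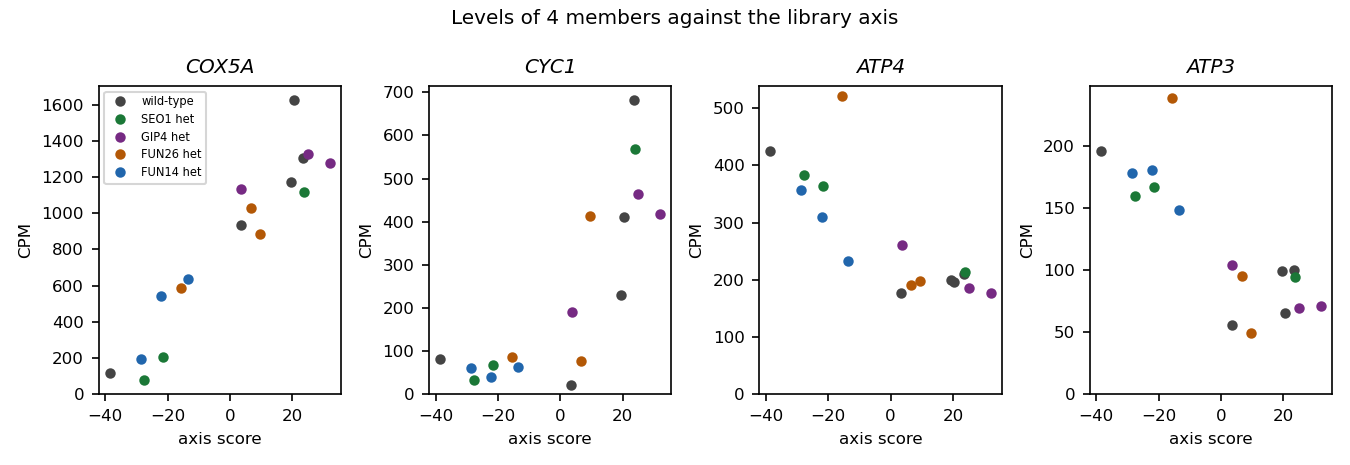
CPM (vertical axes) of COX5A, CYC1, ATP4 and ATP3 against the score of each library on the axis (horizontal axes, no unit), coloured by group. COX5A is below 640 CPM in every library with a score below 0 and above 880 CPM in every other, and ATP3 is the reverse, at 149 CPM or more and at 104 CPM or less.

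**Figure D5:**
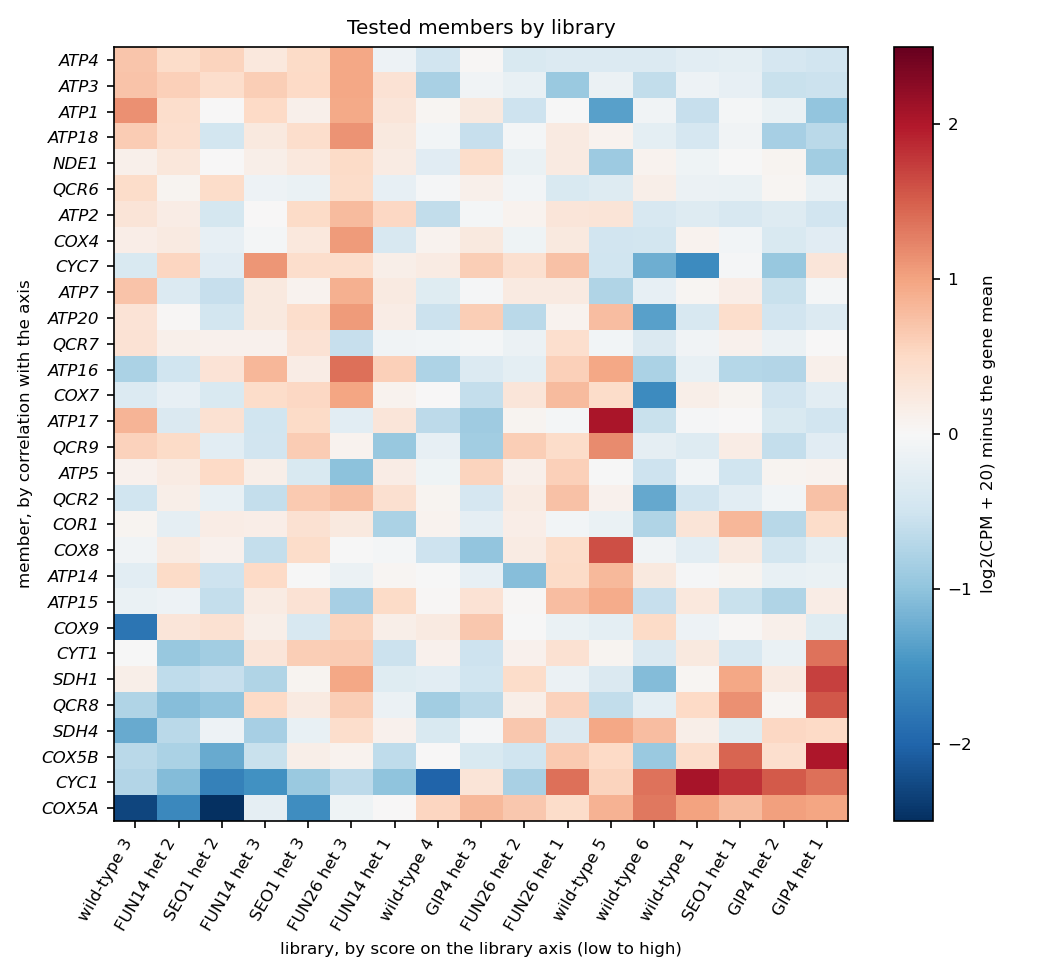
Log2(CPM + 20) minus the mean of each gene (colour) for the 30 tested members (rows, ordered by their correlation with the axis) in 17 libraries (columns, ordered by score). COX5A and CYC1 at the bottom are low on the left and mostly high on the right, ATP4, ATP3 and ATP1 at the top are mostly the reverse, and single libraries such as wild-type 5 and GIP4 het 1 carry isolated high values.

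Other genes of the pathway were read from 7 lists. In every list and every comparison with wild-type, 0 genes rose and 0 fell at an adjusted p under 0.05 (edgeR). Assembly factors of complex IV had fold changes below 0 for 11 of 11 tested genes in the FUN14 heterozygote (median log2 of -0.64). Of all tested ORFs 47.9% lay above 0 there. Of the 11, 4 had an unadjusted p under 0.05 (edgeR), where 16.7% of all ORFs did. These were COX17 (-1.17 ± 0.40, SE) and COX19 (-1.27 ± 0.41), which act in copper delivery, PET191 (-3.00 ± 0.93) and PET494 (-3.25 ± 1.09), an activator of COX3 translation. Their adjusted p-values by edgeR lay between 0.155 and 0.168. Of the 11, 9 correlated above 0 with the library axis, beside 46.9% of all tested ORFs outside the members. All FUN14 libraries lay at the low end of that axis, so the axis and the strain cannot be told apart here either. In the GIP4 heterozygote 4 of the 11 lay below 0, in the FUN26 heterozygote 9 and in the SEO1 heterozygote 7. For the mean of the heterozygotes 10 lay below 0, so the direction was not particular to FUN14.

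Among regulators, HAP3 had a mean of 337 ± 184 CPM in wild-type (SD, n = 5) and 290 ± 147 CPM in the heterozygotes (n = 12). HAP2 had 167 ± 81.5 and 134 ± 55.3 CPM, and ROX1, a repressor of genes used at low oxygen, had 90.7 ± 53.8 and 135 ± 78.8 CPM. HAP1, HAP4 and HAP5 did not pass the filter, with 49.5, 68 and 95 counts over all libraries. No regulator was called. With the library axis HAP3 correlated at 0.88, HAP2 at 0.69 and ROX1 at -0.32. MOT3 and PUF3, the other tested regulators, correlated at -0.58 and -0.74. The other lists, for assembly of complexes II and III, assembly and inhibition of ATP synthase, coenzyme Q synthesis and mitochondrial carriers, had 2, 5, 10, 4 and 5 tested genes. In the FUN14 heterozygote 1, 2, 8, 2 and 2 of these lay below 0. The lowest there were SDH7, for complex II (-3.06 ± 0.82, SE, adjusted p = 0.126, edgeR), and FMC1, for ATP synthase (-2.17 ± 0.81, adjusted p = 0.200, edgeR).

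A promoter motif recurred among the members. The letters ACCAATNA, a core of the CCAAT box bound by HAP2/3/4/5, occurred on either strand within 250 bases before the ORF in 15 of 39 members (38.5%) and in 4.34% of 5916 such windows in R64. The HAP1 motif, a pair of CGG triplets around a TA, occurred in QCR6 only (2.56% of members, 0.101% of windows). ATTGTT, a core of ROX1 sites, occurred in 16 members (41.0%, against 29.2%). No matches of different motifs overlapped in the members. Sites of 4 members described above are shown with the match in capitals, from R64: ATP3 on the plus strand (chrII:315369-315396), ATP4 on the minus strand (chrXVI:408917-408944), COX5B on the plus strand (chrIX:155139-155166) and, for the HAP1 motif, QCR6 on the minus strand (chrVI:224975-225002).
ATP3: gtgatggagaACCAATGAgcggcgagta
ATP4: tcaatattgaACCAATCAcgacgctttt
COX5B: taaacaatagACCAATTAtttcaattta
QCR6: gcacgttcCGGGCATATCGGactggggc
Of the tested members, 10 had a CCAAT match and 20 had none. The median log2 fold change of the heterozygotes against wild-type was 0.09 in the 10 and 0.18 in the 20. CYC1, CYC7 and COX5A held no ACCAATNA in this window.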

How the data were processed

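RNA was sequenced from 18 yeast libraries in 5 groups. Per the labels' protocols, RNA was extracted with Trizol and a column and selected on oligo-dT. The authors deposited 1 table of estimated counts over the last 200 bases of 6606 ORFs; 93.0% of values were whole, most others were multiples of 0.5, and none exceeded 201; whether that ceiling compresses high counts was not tested. Bowtie 0.12.5 was used per the submitters' processing notes; the build, the annotation and the strand setting were not stated, nor how multiple matches were counted.

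Values were rounded and fitted in edgeR 4.0.16 (R 4.3.3): TMM, filterByExpr with a minimum count of 10, 1 mean per group, quasi-likelihood tests, Benjamini-Hochberg adjustment over all 2856 tested ORFs. CPM refers to 1e6 TMM-scaled counts. The SE is the log2 fold change divided by the root of its F statistic. Totals of 52293.5 to 132618 counts limit precision. The principal axis used log2 CPM with a prior count of 2. Isoform shares were compared by exact permutation over libraries. The tests were tried on simulated data. DESeq2 1.42.0, other scaling and filters, and omitted libraries were alternatives.

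The members and lists were chosen with earlier results of these data known. Genes given with values were the 3 smallest p per comparison, the 6 paralogs, the highest and lowest of each complex, NDI1, HAP1 to HAP5 and ROX1. COX9 in single libraries, ATP3, ATP4 and the regulators against the axis and the assembly factors were named after their values were seen. Sequences and promoters came from R64; all 39 ORF lengths equal those of R64.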

Additional observations from a re-analysis of the deposited data

Results flagged for a closer look

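Values in groups of 4 to 10 samples were screened for a library standing apart by Dixon's gap ratio, and 8 of 48 groups had one. For independent values chance gives about 1 in 20. Only wild-type (n = 5) had that many samples, so all values came from the same libraries and are not independent. The 8 of 48 can therefore not be read against that rate. Wild-type replicate 5 stood above the other wild-type libraries for NDE2 (199.0 CPM), SDH3 (179.1 CPM), COX8 (308.5 CPM), COX13 (248.8 CPM) and ATP16 (159.2 CPM), and for the NDE2 share of NDE1 and NDE2 counts (34.48%). Wild-type replicate 3 stood above them for ATP4 (424.7 CPM) and for the complex III sum (2924 CPM).

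The complex IV sum lay above the wild-type mean of 2816 CPM in every GIP4 and FUN26 library and below it in every FUN14 library. That mean was pulled down by wild-type replicate 3, at 1095 CPM, beside 2911 to 3694 CPM in the other wild-type libraries. FUN26 replicates 1 and 2, at 2829 and 2845 CPM, were close to the mean and lay below all of those other libraries. The GIP4 mean exceeded the FUN14 mean by 945.6 CPM and the FUN26 mean exceeded it by 713.6 CPM. These differences were not tested. COX5A, 1 of the 9 genes summed, had means of 1245, 835 and 458 CPM in the GIP4, FUN26 and FUN14 heterozygotes. It had the highest correlation of the members with the library axis (0.89), on which all GIP4 and all FUN14 libraries lay on opposite sides. Against wild-type, 3 of the 6 tested complex IV genes lay above 0 in both the GIP4 and the FUN14 heterozygote.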

How the results depend on the processing

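The count of members called stayed at 0 in all 6 comparisons with RLE scaling, DESeq2, no count filter, separate wild-type replicates 1 and 2, occupancy-converted counts, and, chosen after seeing the data, without wild-type replicates 3 and 5 together or without replicate 5 and the filter. Leaving out single libraries gave 0 to 1 members in the SEO1 heterozygote and among the heterozygotes, both times COX5A without SEO1 replicate 1, and 0 in the other comparisons. Without that library 114 of 3090 tested ORFs were called in the SEO1 heterozygote and 217 among the heterozygotes. A replicate block with wild-type replicates 1 to 3 tested 28 members among 2796 ORFs. In the FUN26 heterozygote it called 1 member (CYC7, log2 1.98, adjusted p = 0.0339 by edgeR) and 17 ORFs in all. In the FUN14 heterozygote it called 2 members (CYC7 at 1.98, CYC1 at -3.09) and 146 ORFs in all. For the mean it called 1 member (CYC7 at 1.67) and 42 ORFs in all. The same libraries without the block gave 0 members. Whether the numbers pair the libraries was not settled: same-numbered pairs correlated above 0.1 in 20 of 30 cases (median 0.23) and others in 25 of 96 (median -0.06), the labels name no shared batch, not every pair passed 0.1, and 7 of 18 libraries correlated best with their own number. Directions reversed for CYC1 in the GIP4 heterozygote (-0.45 with wild-type replicates 1 to 3, -0.35 with the replicate block, -0.00149 without wild-type replicates 3 and 5) and COX5A there (-0.0102 without both). With the block, COX5A and COX5B in the FUN26 heterozygote were 0.0213 and -0.0895, and COX5B for the mean was -0.0241. Leaving out 1 library gave ranges across 0 for COX5A in the GIP4 heterozygote (-0.00920 to 0.477), COX5B in the FUN26 (-0.282 to 0.461, with -0.00176 without wild-type replicate 6) and SEO1 (-0.346 to 0.976) heterozygotes and CYC1 in the SEO1 heterozygote (-2.34 to 0.0891); CYC1 in the GIP4 heterozygote ran from 0.0315 to 0.632. None of these was called in either setting. The NADH dehydrogenase sum was -0.2104 as a mean of log2 CPM over its genes, which weights NDE2 equally. The cause of the other changes was not tested.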
